A study of Mus musculus with 108 samples.

Results

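Single mouse oocytes that had spent 3 h in culture (GV3h) were compared between females in which Exosc10 had been deleted in oocytes (cKO) and control females, in libraries made from polyadenylated RNA (polyA). The samples were chosen by their titles, and they number 19 of the 108 samples of the series: 11 cKO oocytes and 8 control oocytes. The cKO oocytes came from 3 females, V946 with 4 oocytes, V983 with 3 and V993 with 4. The control oocytes came from 3 other females, V951 with 2, V982 with 2 and V995 with 4. The oocytes were taken at the germinal vesicle stage, when the nucleus is still enclosed, and kept outside the body in M2 medium for the 3 h before lysis. The labels used here name neither the Cre driver nor the deleted exons, the strain or the age, and they do not say which alleles the control females carried. Each library is 1 cell and genotype never differs within a female, so the counts of a female's oocytes were summed and the female was the replicate (n = 3 against 3). Calls are genes with an adjusted p (Benjamini-Hochberg, edgeR's quasi-likelihood test) under 0.05. Nothing in the labels says how the females were raised or handled, so p-values measure the spread between these females. Levels are given in CPM, an oocyte's gene counts scaled to a common total, as the mean ± SD over the 3 female means, or as the lowest, median and highest oocyte. No spike-in counts were used, so every change is relative to the other RNA of the same oocyte, and less RNA in an oocyte would leave no trace in these values.

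The RNA exosome is a multi-subunit complex that degrades or trims RNA from the 3′ end. EXOSC10, the homologue of yeast Rrp6, is the catalytic subunit concentrated in the nucleus and nucleolus, where it acts with cofactors on precursors of ribosomal RNA, on small nucleolar RNA (snoRNA) and on short-lived noncoding RNA. A fully grown mouse oocyte is nearly silent in transcription and lives on stored mRNA. Meiosis resumes when cyclic AMP falls and CDK1 with cyclin B becomes active, after which the nuclear envelope breaks down and stored mRNAs are deadenylated and destroyed in sequence.

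Gene counts per oocyte ran from 5476376 to 8415126 in cKO and from 4638718 to 5728197 in controls. All 10 oocyte marker genes (Zp1, Zp2, Zp3, Gdf9, Bmp15, Ddx4, Oosp1, Nlrp5, Figla and Nobox) had counts in all 19 oocytes. Of these, 4 were called higher and 0 lower (6 and 0 with library totals, 4 and 1 without the cKO oocytes V983_1 and V983_3). Of 22 granulosa and cumulus marker genes, 9 had enough counts to be tested, 1 was higher (Hsd3b1) and 2 lower (Cyp19a1 and Greb1; with library totals 2 higher and 1 lower), and the list's sum was 83.6 to 143.6 CPM in cKO oocytes and 99.8 to 111.8 CPM in controls. Foxl2 and Amh were at 0 in all controls and at most 0.976 CPM in a cKO oocyte, and Ptx3 was at 0 everywhere. Other members reached higher levels in single cKO oocytes than in any control: Gja1 37.3 against 1.16 CPM, Inha 18.95 against 2.59 CPM (not called, adjusted p = 0.0758), Fst 10.8 against 0.185 CPM and Fshr 8.375 against 2.65 CPM. Of 10 endothelial marker genes 7 were tested, 4 fell (Kdr, Erg, Tie1 and Tek) and 1 rose (Cldn5), with sums of 68.6 to 135.1 CPM in cKO and 85.9 to 136.2 CPM in controls; Emcn and Esam were at 0 in every oocyte, and Cdh5 had counts in 1 control oocyte only. Of 9 ovarian surface marker genes 4 were tested, 2 fell (Cdh1 and Muc16) and 1 rose (Upk3b; 1 and 1 both with library totals and without the cKO oocytes V983_1 and V983_3), with sums of 138.4 to 249.1 CPM in cKO and 241.0 to 320.3 CPM in controls. Cyp19a1 lost its call without V946, V993, V982 or V995 (-0.75 to -0.62), and Greb1 without V946, V993, V951 or V982 (-1.54 to -1.29). Tie1 lost its call without V946 (-1.41) or V982 (-1.39), Tek without V983, V993, V951, V982 or V995 (-0.92 to -0.61), and Muc16 without V983, V993, V951 or V982 (-1.57 to -0.92). The theca and stroma list summed to 0.169 to 14.2 CPM in cKO and 1.245 to 6.72 CPM in controls, and the blood and immune list to 15.4 to 30.3 CPM and 14.6 to 23.05 CPM. Of 4 theca and stroma genes tested 1 rose (Ptch1) and 0 fell, and of 2 blood and immune genes 0 were called. Ptch1 lost its call without V946, V951 or V982 (1.80 to 2.33). The 4 adult globin genes were at 0 in every oocyte. The part of such markers in the results below was not tested. In a principal component analysis of 1000 variable genes the first component took 69.4% of the variance. It ran from 41.4 to 54.7 in control oocytes and from -58.8 to -26.9 in 9 of the 11 cKO oocytes. The other 2, V983_1 at 2.09 and V983_3 at -1.70, stood between the genotypes, while V983_2 from the same female was at -44.6. Results are therefore also given without V983_1 and V983_3, an alternative chosen after seeing the data. Spearman correlations between oocytes over 13622 genes had a median of 0.971 between control females, 0.944 between cKO females and 0.881 between genotypes; the oocytes share library preparation and normalization.

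**Figure D1:**
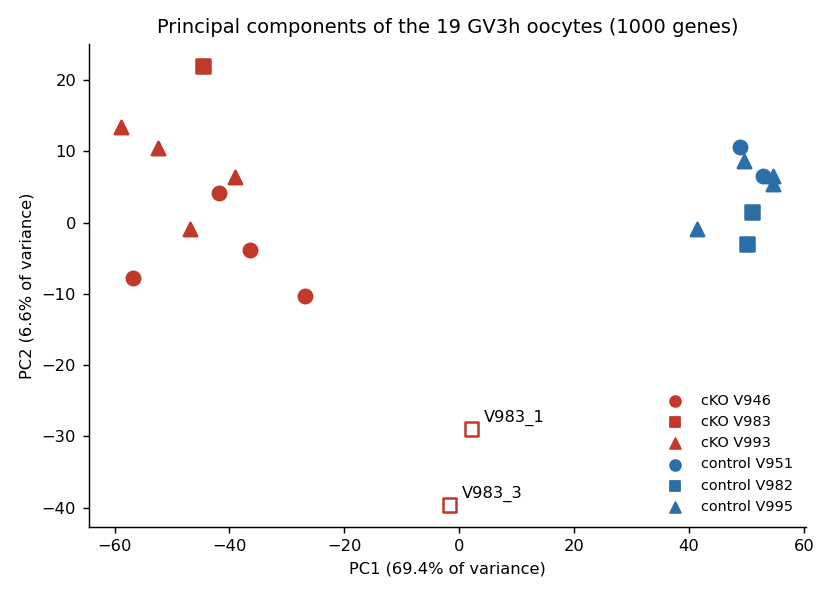
Each point is 1 of the 19 oocytes, placed by its first (69.4% of variance) and second (6.6%) principal components of log2 CPM over 1000 genes; colour gives the genotype and shape the female. Control oocytes lie from 41.4 to 54.7 on the first component, 9 cKO oocytes at -26.9 or lower, and V983_1 and V983_3 (open squares) near 0.

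Exosc10 (ENSMUSG00000017264, chr4:148558429-148582401 in GRCm38, plus strand) checked the labels. The 8 control oocytes held 63.5 to 122.5 CPM with a median of 116.1, and the 11 cKO oocytes held between 0.122 and 4.83 CPM with a median of 1.67. The genotypes did not overlap, and V983_1 (0.419 CPM) and V983_3 (1.73 CPM) had as little Exosc10 mRNA as the other knockout cells. The female means were 98.6 ± 30.3 CPM in controls and 1.71 ± 0.608 CPM in cKO (log2 fold change -5.92 ± 0.36 SE, adjusted p = 8.2e-05).

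Loss of Exosc10 was accompanied by a change in a large part of the oocyte transcriptome. Of 16844 genes tested, 6681 (39.7%) were called, 3528 higher (20.9%) and 3153 lower (18.7%) in cKO. Of these, 2540 rose (15.1% of genes tested) and 1325 fell (7.87%) by 2-fold or more. The oocytes of the genotypes did not overlap at all for 1925 genes (11.4%), with cKO above control for 918 (5.45%) and below for 1007 (5.98%). Without V983_1 and V983_3, 6079 genes were called, 3287 higher and 2792 lower. Higher genes made up 52.8% of the calls under TMM scaling and 70.8% when counts were scaled by library totals alone, which moved the median log2 fold change of all genes from 0.04 to 0.25; each direction below is relative to the median gene under TMM. Library totals moved the median of every gene list towards higher, and lists whose balance of calls turned are given with both counts. The lists were put together with earlier results known, so their counts describe them and are not independent evidence. The share of all genes called, 20.9% higher and 18.7% lower, is the background for each list.

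**Figure D2:**
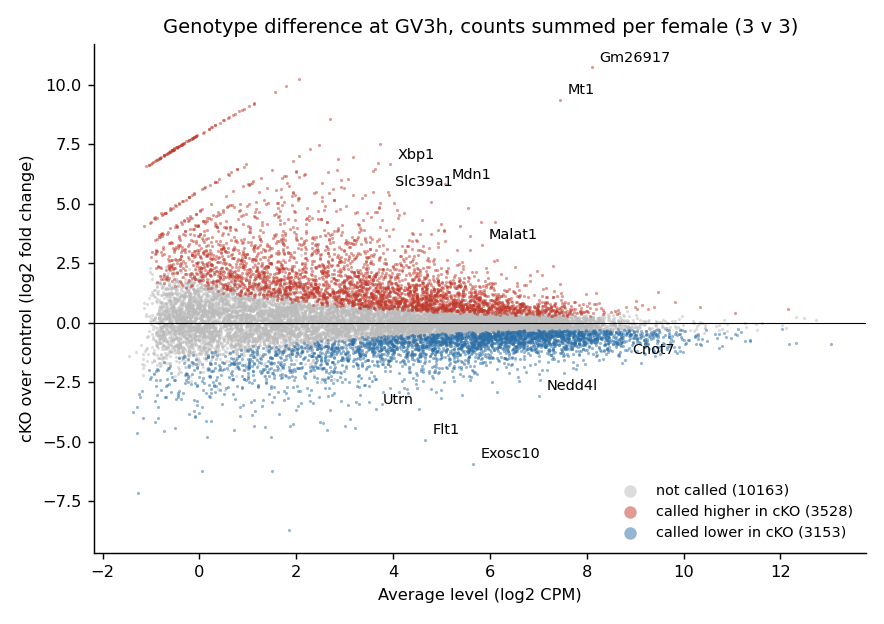
Each point is 1 of the 16844 genes tested; the x axis is its average level (log2 CPM) and the y axis its log2 fold change, cKO over control, from counts summed per female. Red genes (3528) were called higher and blue genes (3153) lower; the straight rows of points at upper left are genes with 0 or a few counts in controls, whose fitted fold depends on the prior count.

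Among genes with a mean of at least 20 CPM in cKO and 1 CPM in controls, the 10 largest rises included factors of ribosome and RNA maturation. Genes below 1 CPM in controls, such as Mt1 and Slc39a1, fall outside this rule and are described below. Mdn1 (chr4:32657119-32775217), which encodes midasin, an AAA ATPase needed to mature the large ribosomal subunit, had 0 to 3.21 CPM in the control oocytes and 15.8 to 117 CPM in the cKO oocytes (median 70.3). Every cKO oocyte lay above every control oocyte, and the log2 fold change was 5.82 ± 0.38 SE (adjusted p = 8.9e-05). Clp1, an RNA kinase of the mRNA 3′-end cleavage complex, went from 1.36 ± 0.282 to 36.3 ± 19.8 CPM. Gpkow, a spliceosomal G-patch protein, rose to 26.1 ± 12.7 CPM (log2 fold change 4.33). The other rises named by the same rule were Zc3hc1 (a nuclear pore basket protein, 1.58 ± 0.931 to 54.1 ± 35.2 CPM), Cct6a (a chaperonin subunit gene whose annotated span overlaps Psph and a snoRNA, log2 fold change 4.83), Zfyve27 (4.76), Zfp367 (4.55), the MAP kinase phosphatase gene Dusp2 (4.41), the ubiquitin ligase adaptor gene Klhl21 (4.26) and the germ cell gene Tex19.2 (4.22). All 10 were called, with adjusted p between 8.9e-05 and 0.000779, and all kept every cKO oocyte above every control oocyte, which the rule required. Klhl21 overlaps the predicted gene Gm9768 on the opposite strand (log2 fold change 3.89), and the strand setting of the counting is not given in the sources used here, so reads of these neighbours cannot be told apart.

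A set of 441 called genes had no more than 3 counts in any control oocyte, and 93 of them had none; 241 of the 441 were protein-coding, 59 were annotated as TEC (loci to be experimentally tested) and 45 as lincRNA. In the reverse direction 26 called genes had no more than 3 counts in every cKO oocyte. That cut is stricter, because cKO libraries were deeper (median 7021790 against 5232690 gene counts) and numbered 11 against 8. Of the 441, the 5 with the highest cKO level were Cdc42ep4, a Cdc42 effector gene (26.2 ± 12.1 CPM), Mcrip1 (24.1 ± 11.6), the ERK phosphatase gene Dusp5 (17.9 ± 11.4), Selenos, a selenoprotein of the endoplasmic reticulum (13.9 ± 7.66), and Zfp622, a ribosome maturation factor (12.4 ± 7.59). Cdc42ep4 had 5 counts in all 8 control oocytes together and 2170 in the 11 cKO oocytes, a ratio per library total of 231 (95% exact interval 98.8 to 712). Zfp622 had 1 count against 1038, a ratio of 552 (98.9 to 21800). These intervals cover counting error only. In every cKO oocyte each of the 5 genes had counts, V983_1 and V983_3 included.

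The largest falls were in genes of varied function, among them a growth factor receptor, a ubiquitin ligase and a mitochondrial carrier. Flt1, a VEGF receptor gene of 164 kb (chr5:147561604-147726011), had 13.6 to 65.6 CPM (median 49.2) in the control oocytes and 0.135 to 3.96 CPM (median 1.34) in the cKO oocytes. No cKO oocyte came near the lowest control, and the log2 fold change was -4.92 ± 0.30 SE (adjusted p = 8.2e-05). Kdr, the other main VEGF receptor gene and one of the endothelial markers, fell from 4.52 ± 2.94 to 0.225 ± 0.213 CPM, also without overlap. Nedd4l, a ubiquitin ligase gene, went from 231 ± 18.9 to 28.5 ± 11.8 CPM, with 165 CPM in the lowest control oocyte and 61.2 CPM in the highest cKO oocyte. Slc25a13, the mitochondrial aspartate-glutamate carrier, fell from 43.1 ± 12.6 to 3.68 ± 3.09 CPM. Utrn (utrophin), Trib2, Man1a (a Golgi mannosidase), Pard6g (a polarity protein), Ece1 (an endothelin-converting enzyme) and Sh3bp4 also fell, by log2 values from -3.62 for Utrn to -2.91 for Sh3bp4. Among clone-named genes, the largest falls were Gm49367 (-2.90), A630095E13Rik (-2.84), which overlaps Gm49367 on the same strand, and Gm36241 (-2.43). Abca9, outside the naming rule and chosen after its values were seen, had 4.90 to 11.6 CPM in the control oocytes and no more than 0.124 CPM in any cKO oocyte.

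**Figure D3:**
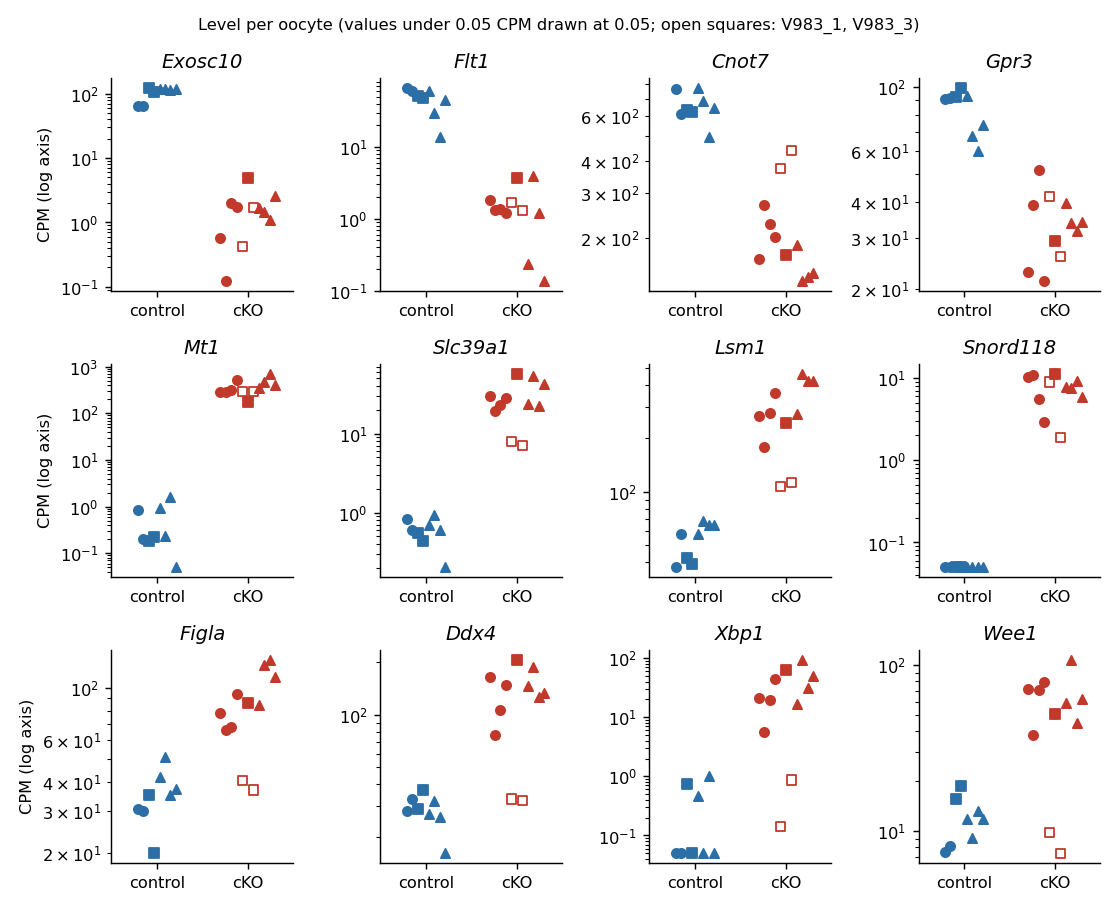
CPM per oocyte (log axis) for 12 genes, controls in blue and cKO in red, with 1 marker shape per female within a genotype and V983_1 and V983_3 as open squares; values under 0.05 CPM are drawn at 0.05. The genotypes separate fully for Exosc10, Flt1, Cnot7, Gpr3, Mt1, Slc39a1, Lsm1 and Snord118, whereas V983_1 and V983_3 lie among the controls for Figla, Ddx4, Xbp1 and Wee1.

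Among genes of metal and zinc handling, 7 of 19 tested rose (36.8%) and 2 fell (10.5%), against 20.9% and 18.7% of all genes. Mt1 encodes metallothionein 1, a small cysteine-rich protein that binds zinc and copper (ENSMUSG00000031765, chr8:94179082-94180327). The control oocytes had 0 to 1.60 CPM with a median of 0.226, and the cKO oocytes had 174 to 693 CPM with a median of 321. The genotypes lay far apart, V983_1 and V983_3 were at 290.0 and 289.9 CPM, and the log2 fold change was 9.37 ± 0.38 SE (adjusted p = 1.1e-05). Its neighbour Mt2, at 26 counts in all cKO oocytes together and 1 in all controls, was too low to be tested, and Mtf1, the metal-sensing transcription factor, was not called (306 CPM in controls, 352 CPM in cKO). Mt4, another metallothionein gene, had 866 counts in the 11 cKO oocytes and 212 in the 8 control oocytes, before scaling for depth. The zinc importer gene Slc39a1 had 0.204 to 0.926 CPM in controls and 7.05 to 56.8 in cKO oocytes (log2 fold change 5.52 ± 0.29 SE). Slc39a4 (2.52) and the Golgi zinc transporter gene Slc30a7 (2.18) also rose, and the importer genes Slc39a10 (-0.71) and Slc39a6 (-0.45) fell; these last were named after their values were seen.

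Small nucleolar RNAs are usually not polyadenylated, are excised from introns or made from their own genes, and guide the modification or cleavage of ribosomal RNA. Of 9 genes annotated as snoRNA or scaRNA that had enough counts to be tested, 6 rose and 2 fell, with Rnu3a counted under 2 identifiers of identical values, against 20.9% and 18.7% of all genes. Snord118, or U8, is required for processing of 5.8S and 28S rRNA. Its sequence is shown because it was at 0 in every control oocyte and present in every cKO oocyte; capitals mark the box C core TGATGA and every copy of the box D core CTGA (GENCODE M21, RNA strand written as DNA, 135 bases).
Snord118 (chr11:69073427-69073561): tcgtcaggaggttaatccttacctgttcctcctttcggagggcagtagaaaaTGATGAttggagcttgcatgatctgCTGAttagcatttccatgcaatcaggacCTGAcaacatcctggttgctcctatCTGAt
Snord118 had 0 counts in all 8 control oocytes and counts in all 11 cKO oocytes, from 1.87 to 11.1 CPM. The cKO mean of 7.45 CPM was at least 12.7-fold higher than in controls, taken against the floor of 3 counts per control library. Snord13 met the same condition at a lower level and also rose. It had 0 counts in all 8 controls, counts in all 11 cKO oocytes and a cKO mean of 3.64 CPM, at least 6.2-fold higher. The U3 snoRNA gene Rnu3a, listed under 2 identifiers with the same values, was at 0.0193 CPM in controls and 2.77 CPM in cKO, again without overlap. Calls among predicted genes were Gm25395 and Gm24853, which rose, and Gm23083 and Gm22504, which fell, all below 3 CPM. Among host genes of snoRNAs, which are long noncoding genes apart from the protein-coding Rc3h2 and Taf1d, 10 of 18 tested were higher and 0 lower (all genes 20.9% and 18.7%), with a median log2 fold change of 1.48, or 1.425 with genes near 0 in controls held at their lower bound. Without V983_1 and V983_3, 8 were higher. Gas5 went from 14.1 ± 1.65 to 38.6 ± 2.99 CPM and Zfas1 from 4.25 ± 0.711 to 15.8 ± 4.76; these were chosen after their values were seen. Rc3h2 went from 4.10 ± 1.88 to 31.0 ± 9.36 CPM (log2 fold change 2.82), and Snhg20 (2.92) and Snhg9 (2.79) had log2 fold changes of like size at lower levels.

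The nuclear lincRNA Malat1 had 3.52 to 22.5 CPM in controls and 29.4 to 278 in cKO (log2 fold change 3.28 ± 0.18 SE; named after its values were seen). Gm26917, a predicted lincRNA (chr17:39843013-39846341), had at most 0.802 CPM in a control oocyte and 76.0 to 1183 CPM in cKO oocytes. Replication-dependent histone mRNAs normally end in a stem-loop without a poly(A) tail; 11 of 27 tested histone cluster genes rose (40.7%), 1 fell and 15 were not called (10 higher and 1 without V983_1 and V983_3). Hist1h1e went from 1.10 ± 0.510 to 19.1 ± 2.88 CPM, Hist1h4d from 0.348 ± 0.418 to 4.85 ± 0.905, and Hist1h3a (0.492 to 3.21 CPM) and Hist1h1d (1.83 to 6.20 CPM) also rose. Hist1h2bc, named as the only fall, went from 110 to 56.8 CPM. Histone genes share much of their sequence and Hist1h1e overlaps Hist1h2be in the annotation, so the assignment of reads among them is uncertain.

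The other genes of the exosome and its cofactors did not move as a block under TMM: 5 of 25 rose, 5 fell and 15 were not called, close to the background. With library totals 9 rose and 1 fell, where 29.2% and 12.1% of all genes did. Without V983_1 and V983_3 the counts were 6 and 3. C1d, which encodes a nuclear cofactor that binds EXOSC10, had 0.927 to 2.81 CPM in controls and 3.46 to 26.7 in cKO (log2 fold change 2.91 ± 0.30 SE). Ncbp1, the larger subunit of the nuclear cap-binding complex, went from 3.71 ± 1.41 to 24.8 ± 10.2 CPM, the core subunit gene Exosc6 from 2.36 to 13.9 CPM and Exosc2 from 11.7 ± 1.42 to 27.5 ± 3.60 CPM. Mtrex, the helicase that feeds RNA to the nuclear exosome, was called lower (-1.02) but not without V983_1 and V983_3 (adjusted p = 0.11); it was named after its values were seen. Of 17 other 3′ and 5′ exonuclease genes 6 rose (35.3%) and 0 fell, among them Isg20l2 (4.40), a nucleolar exonuclease, and Exd2 (1.60).

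Several genes that control cyclic AMP in prophase arrest fell. Gpr3, the constitutively active receptor that keeps cyclic AMP high, had 59.97 to 99.2 CPM (median 91.6) in controls and 21.2 to 51.6 CPM in cKO (median 33.9). The genotypes did not overlap (log2 fold change -1.41 ± 0.15 SE, adjusted p = 0.00031). Pde3a, the phosphodiesterase that lowers cyclic AMP at resumption, moved the same way, from 478 ± 31.9 to 265 ± 42.1 CPM (-0.88 ± 0.13 SE). Prkar2b, a regulatory subunit of protein kinase A, fell from 30.1 to 9.85 CPM. In this list of 15 genes 5 fell (33.3%) and 1 rose; scaled by library totals, 4 fell and 3 rose. Gpr12 (-2.09), at about 1 CPM in controls, lost its call when V946, V951, V982 or V995 was left out, at log2 fold changes from -2.19 to -1.64.

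In the CDK1 switch, 4 of 20 genes fell and 2 rose, close to and below the shares of all genes (4 and 6 with library totals), so single members are described. Wee1, an inhibitory CDK1 kinase, had 7.47 to 18.8 CPM in controls; 9 cKO oocytes had 37.9 to 108 CPM, whereas V983_1 (9.77) and V983_3 (7.34) were within or below the control range. Its log2 fold change was 2.07 ± 0.41 SE. Ensa, a phosphatase inhibitor activated at entry into M phase, rose from 37.7 to 69.8 CPM, and Ccnb3 (-1.57) and the Aurora A cofactor gene Bora (-0.65) fell. Of 27 genes of the anaphase-promoting complex and the spindle checkpoint, 10 fell (37.0%) and 2 rose, with a median of -0.23; scaled by library totals, 6 fell and 6 rose. The checkpoint kinase gene Ttk fell from 475 ± 49.3 to 196 ± 3.89 CPM without overlap, and the oocyte Aurora kinase gene Aurkc from 85.2 ± 12.1 to 48.6 ± 2.79 CPM. The 2 that rose were Fzr1, the prophase activator of the anaphase-promoting complex (212 to 382 CPM), and Anapc10 (42.7 to 77.8 CPM).

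Genes of the nuclear lamina and envelope moved in both directions, 7 higher and 7 lower of 20 (35.0% each way; 9 and 6 with library totals). The rises were in genes low in controls: Lemd2, an inner nuclear membrane protein, went from 0.191 ± 0.330 to 14.2 ± 7.56 CPM, the LEM-domain endonuclease gene Ankle1 from 0.0818 to 3.33, Lemd3 from 0.187 to 2.02 and the linker protein gene Sun2 from 3.80 to 13.3 CPM. The falls were in abundant mRNAs. Lmna, the gene of lamins A and C, had 267 to 355 CPM in control oocytes and 130 to 203 in cKO oocytes (-0.91 ± 0.11 SE), and its product is dismantled when the germinal vesicle breaks down. Lmna was named after its values were seen. Summed over the list, control oocytes held 2919 to 3172 CPM and cKO oocytes 1928 to 2418. In the nuclear pore and mRNA export list 5 of 29 rose (17.2%) and 3 fell (10.3%), below the shares of all genes. The members named were the export adaptor gene Alyref (1.06, lost without V951 at 0.86 or V995 at 0.98), Nup214 (-0.95), Nup54 and Ranbp2. Nup54 fell, with 72.4 to 90.8 CPM in control oocytes and 48.35 to 68.95 in cKO oocytes. Ranbp2 rose, with female means of 115 to 133 CPM in controls and 177 to 183 CPM in cKO. Its call was lost with all polyA groups in one edgeR fit (0.47, adjusted p = 0.0702).

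Among genes of the machinery that removes stored mRNA, more fell than rose under TMM. Of 31 deadenylation and decay genes, 15 (48.4%) fell and 8 (25.8%) rose; the counts were 8 and 9 with library totals, and 10 and 8 without V983_1 and V983_3. Cnot7, a catalytic deadenylase of the CCR4-NOT complex, had 495.8 to 772.0 CPM (median 640.8) in the control oocytes and 136 to 439 CPM (median 188.5) in the cKO oocytes, without overlap. The 2 highest knockout oocytes were V983_3 (439) and V983_1 (375), and the log2 fold change was -1.55 ± 0.22 SE (adjusted p = 0.00082). Btg4, the adaptor that brings CCR4-NOT to maternal mRNA during maturation, fell from 1669 ± 67.1 to 916 ± 80.1 CPM (named after its values were seen). Lsm1, of the cytoplasmic decapping ring, moved the other way, from 37.3 to 68.1 CPM in controls to 107 to 460 CPM in cKO oocytes (2.38 ± 0.31 SE). The m6A reader gene Ythdf1 rose from 15.0 ± 3.27 to 46.6 ± 10.1 CPM, and Tut4, a uridylyltransferase gene, had 0.271 and 1.42 CPM (2.49; not called without V982 at 2.60 or V995 at 1.99).

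Genes of mRNA storage and translation were divided, 8 higher and 8 lower of 25 (32.0% each way; 10 and 4 with library totals, 8 and 5 without V983_1 and V983_3). Pabpc1, the somatic cytoplasmic poly(A)-binding protein gene, had 3.31 to 14.4 CPM in controls and 16.3 to 90.4 in cKO (3.21 ± 0.36 SE), and the repressor genes Cpeb2 (2.25) and Eif4ebp1 (2.14) rose. The oocyte poly(A)-binding protein genes Pabpn1l (982.8 ± 86.3 to 374 ± 180 CPM) and Pabpc1l (177 to 120 CPM) fell; both were named after their values were seen. In the list of mRNA 3′-end formation 7 of 18 rose (38.9%) and 3 fell (16.7%), with Clp1 above, Cpsf7 (2.43), Rbbp6 (2.42) and Nudt21 (2.04) leading. Nonsense-mediated decay genes had 5 higher and 5 lower of 17 (29.4% each way; 6 and 3 with library totals, 5 and 3 without V983_1 and V983_3): the endonuclease adaptor gene Smg5 rose (1.66) and the helicase gene Upf1 fell (-0.96). Splicing regulators rose in 13 of 36 (36.1%) and fell in 4 (11.1%), among them the SR protein genes Srsf6 (1.67), Srsf11 (1.66) and Srsf1 (1.39).

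Transcription factors of growing and fully grown oocytes split. Figla, a basic helix-loop-helix factor of early follicles and zona genes, had 19.9 to 50.9 CPM in controls and 66.4 to 131 in 9 cKO oocytes, with V983_1 at 40.5 and V983_3 at 36.8 inside the control range. The log2 fold change was 1.26 ± 0.26 SE. Sohlh1, another early factor, was at 0.126 CPM in controls and 2.17 ± 1.52 in cKO, Gsc rose from 1.98 to 10.3 CPM and Tbpl2, the oocyte TBP paralogue, from 11.4 ± 1.17 to 29.2 ± 1.57. In all 6 of 17 rose and 6 fell (35.3% each way); scaled by library totals the counts were 6 and 2. Germ cell genes of the small RNA pathway gave 4 rises and 4 falls of 23, 17.4% each way and below the background (6 and 3 both with library totals and without V983_1 and V983_3): Ddx4, the germ granule helicase gene, went from 29.5 ± 3.93 to 121 ± 29.2 CPM, Piwil2 from 2.87 ± 1.54 to 38.2 ± 10.6, while Piwil1 (-1.78) and the Argonaute gene Ago3 (-1.26; named after its values were seen) fell. Ddx4 in V983_1 (32.9) and V983_3 (32.3) was again at the control level.

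Maternal effect genes, whose products support the first cleavages, fell in 9 of 19 (47.4%) and rose in 1. Nlrp2 went from 510.1 ± 53.01 to 272 ± 30.1 CPM, Nlrp9b from 894 ± 29.3 to 535 ± 9.37, and Zar1 from 1614 ± 238 to 1036 ± 99.6; Nlrp9a and Nlrp9b are close paralogues whose reads may be shared. For the maternal effect genes the count was 5 lower and 3 higher with library totals, and 6 and 0 without V983_1 and V983_3. Of 15 zona and growth factor genes 6 fell and 2 rose (3 and 5 with library totals). Fgf8, an oocyte signal to cumulus cells, fell from 109 ± 16.6 to 35.9 ± 9.51 CPM and the gap junction gene Gja4 from 1589 ± 184 to 875 ± 174, both without overlap. Kit, the receptor for Kit ligand, fell (-0.62), a call lost without V983_1 and V983_3 (-0.37, adjusted p = 0.128), and Oosp3 (-1.02) lost its call without V946, V951 or V995 (-1.06 to -0.86), with DESeq2 (-1.02, adjusted p = 0.0564) and with library totals (-0.80, adjusted p = 0.0608). Among 31 DNA methylation and chromatin genes, 9 rose and 8 fell (29.0% and 25.8%; 10 and 5 with library totals, 9 and 5 without V983_1 and V983_3). The de novo methyltransferase gene Dnmt3a went from 370 ± 49.6 to 182 ± 22.3 CPM (named after its values were seen), while the histone methyltransferase gene Ehmt2 (3.09), Ring1 (3.22), Kmt2a (2.16; not called in limma's fit of oocytes at 2.62, adjusted p = 0.078, or with all polyA groups in one fit, adjusted p = 0.0757) and Brd3 (1.69) rose from lower levels.

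In the endosomal system the early endosome list had 6 rises (26.1%) and 3 falls (13.0%) of 23, near the shares of all genes (20.9% and 18.7%). The GTPase genes Rab5b (3.64 to 18.5 CPM) and Rab5a (5.50 to 20.5 CPM) rose without overlap, as did Snx5 (17.2 to 65.5 CPM), and Rabep2 rose (2.21). In the late endosome and lysosome list 6 of 29 rose (20.7%) and 3 fell (10.3%), at and below the shares of all genes, so only single members are described. Ctsl, the lysosomal protease cathepsin L, had 0 to 0.816 CPM in controls and 4.61 to 34.9 in cKO (4.68 ± 0.33 SE), and the lysosomal regulator gene Tfeb had 1 count in all controls and 170 in all cKO oocytes. Rab7, the GTPase gene of late endosomes, was not among the 4 named by the rule; chosen after its values were seen, it fell from 296 ± 35.9 to 125 ± 39.0 CPM without overlap. Of 18 recycling and secretory Rab genes 2 fell (Rab8b, -2.08; Rab27a, -1.17) and 2 rose (Rab1a, 1.57; Rab31, 1.30), 11.1% each way and below the background (5 higher and 2 lower with library totals). Rab31 lost its call in limma's fit of oocytes with correlation within females (1.00, adjusted p = 0.124). Autophagy genes had 1 rise (Wipi2, 1.12) and 2 falls (Atg7 at -0.68 and Rb1cc1 at -0.41) of 21, below the background in both directions under TMM. With library totals 7 rose and 0 fell, where 29.2% and 12.1% of all genes did. Without V983_1 and V983_3 the counts were 4 and 1. Atg7 lost its call without V951 (-0.57), and Rb1cc1 without V946, V993, V951 or V982 (-0.48 to -0.29) or without V983_1 and V983_3 (-0.37).

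Genes of the unfolded protein response and endoplasmic reticulum chaperones rose in 11 of 23 (47.8%) and fell in 3, and the counts were the same without V983_1 and V983_3. This response has 3 sensors, the kinase-RNase encoded by Ern1, the kinase encoded by Eif2ak3 and ATF6, and many of its target promoters carry the endoplasmic reticulum stress response element, CCAAT and CCACG separated by 9 bases of any kind. The sites found within 250 bases upstream of the annotated start (both strands searched, RefSeq, GRCm38.p6) are shown because they let the members' changes be read beside their promoters; capitals mark the fixed letters, and each site is written on the strand that holds the motif.
Hspa5 (chr2:34772025-34772043, plus): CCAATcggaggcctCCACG
Hsp90b1, nearer site (chr10:86705533-86705551, plus): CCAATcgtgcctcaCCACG
Hsp90b1, farther site (chr10:86705638-86705656, minus): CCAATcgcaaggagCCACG
Calr (chr8:84847075-84847093, plus): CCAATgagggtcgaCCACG
Pdia6 (chr12:17266491-17266509, plus): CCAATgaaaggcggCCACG
Dnajc3 (chr14:118937827-118937845, plus): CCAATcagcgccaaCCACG
Canx (chr11:50325800-50325818, minus): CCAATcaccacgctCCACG
Creld2 (chr15:88819520-88819538, minus): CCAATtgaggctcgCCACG
Of 32851 promoters searched, 37 (0.113%) held the motif. It was present in 4 of the 11 members that rose (Hspa5, Hsp90b1, Calr and Pdia6), in 1 of the 3 that fell (Dnajc3) and in 2 of 6 that were not called (Canx and Creld2). The other 3 uncalled members, Manf, Atf6 and Hyou1, were not searched. Promoters with the motif were thus found among members of each class. The promoters of Hspa5, which rose, and Dnajc3, which fell, are given whole for comparison, 250 bases each, with the motif in capitals.
Hspa5 (chr2:34771840-34772089, plus strand): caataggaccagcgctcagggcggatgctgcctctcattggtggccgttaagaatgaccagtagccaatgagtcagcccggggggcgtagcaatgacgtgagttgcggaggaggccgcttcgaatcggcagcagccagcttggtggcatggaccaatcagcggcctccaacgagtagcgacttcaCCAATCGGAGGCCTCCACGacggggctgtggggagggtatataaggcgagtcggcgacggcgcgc
Dnajc3 (chr14:118937682-118937931, plus strand): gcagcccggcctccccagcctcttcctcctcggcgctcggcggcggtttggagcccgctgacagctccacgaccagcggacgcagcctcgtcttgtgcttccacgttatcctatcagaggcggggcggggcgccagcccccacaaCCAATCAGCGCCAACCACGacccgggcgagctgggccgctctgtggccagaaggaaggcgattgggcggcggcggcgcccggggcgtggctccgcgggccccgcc

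Hspa5, the main chaperone of the endoplasmic reticulum, had 347 to 525 CPM in control oocytes and 634 to 1494 CPM in cKO oocytes, without overlap (log2 fold change 1.31 ± 0.18 SE, adjusted p = 0.00078; named, with the other motif-bearing members, after the values were seen). Dnajc3, an inhibitor of eIF2α kinases, fell from 513 ± 31.3 to 285 ± 24.1 CPM. The sensor gene Ern1 also fell, with 875 to 1241 CPM in control oocytes and 448 to 713.5 CPM in cKO oocytes, without overlap. Ppp1r15a was called lower as well, and both were named after their values were seen. Xbp1, the transcription factor gene spliced by the ERN1 product, had 0 counts in 5 control oocytes and 0.463, 0.740 and 1.00 CPM in the others. In cKO it had 0.140 CPM in V983_1, 0.864 in V983_3 and 5.61 to 92.5 CPM in the other 9, so 2 knockout oocytes stayed in the control range (log2 fold change 6.67 ± 0.58 SE). Its call was lost in limma's fit of oocytes with correlation within females (5.88, adjusted p = 0.0645). Herpud1 had 1 count in all controls and 253 in cKO, with none in 3 cKO oocytes. Eif2ak3 rose from 4.82 ± 0.590 to 19.8 ± 3.29 CPM and Dnajb9 from 5.81 ± 0.508 to 23.7 ± 2.52.

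Cytosolic heat shock genes gave 3 rises and 3 falls of 21 (14.3% each way), below the background (6 higher and 2 lower with library totals), with Hsf2, a heat shock transcription factor gene, going from 1.62 to 6.72 CPM in controls to 23.7 to 113 CPM in cKO (cKO median 65.8 CPM, adjusted p = 8.9e-05). Hsp90ab1 fell (-0.70), a call lost without V983_1 and V983_3 (-0.43, adjusted p = 0.107). Of 22 p53 and DNA damage genes 9 rose (40.9%) and 3 fell. Mdm2 had 121.5 to 160.1 CPM in control oocytes and 70.2 to 108.6 CPM in cKO oocytes. Btg2 had 17.5 to 29.4 and 7.6 to 17.3 CPM. Both were lower without overlap and were named after their values were seen. Pmaip1 (2.74), a BH3-only gene, and Chek2 (1.51), the checkpoint kinase gene of oocyte quality control, rose; Gadd45a (1.59) and Cdkn1a (0.996 to 2.60 CPM) were also called higher, but Gadd45a lost its call without V983 (1.26) or V982 (1.72) and Cdkn1a without V946, V983, V951 or V995 (1.08 to 1.42), in limma's fit of oocytes (1.61, adjusted p = 0.0514) and with all polyA groups in one fit (1.37, adjusted p = 0.0823). Among immediate-early genes 5 of 16 rose and 1 fell (all genes 20.9% and 18.7%). Ier2 had 1.43 to 3.61 CPM in controls and 20.5 to 105 CPM in 9 cKO oocytes, with V983_1 at 5.16 and V983_3 at 2.02. Dusp1 was called lower (-1.47) but not without V983_1 and V983_3 (-0.92, adjusted p = 0.107). Cholesterol synthesis genes rose in 9 of 25 (36.0%) and fell in 5, with rises in Pmvk (3.32) and Mvk (2.85, not called without V982 at 2.60). Both were low in controls, Pmvk at 0 to 2.24 CPM and Mvk at 9 counts in all. Hmgcs1 (633 to 776 CPM in controls, 329 to 607 in cKO) and Srebf1 (138.7 to 227.5 and 87.8 to 133.9) were lower without overlap. These 2 were named after their values were seen. The list summed to 1739 to 2368 CPM in cKO oocytes and 2197 to 2461 CPM in controls. Of 20 calcium signalling genes 4 rose and 4 fell, close to the background under TMM, with Stim1, the calcium store sensor gene, at 2.87. With library totals 10 of the 20 rose and 3 fell, where 29.2% and 12.1% of all genes did. Ubiquitin and proteasome genes had 2 rises (9.09%, below the background) and 4 falls (18.2%, close to it) of 22 under TMM. With library totals 7 rose and 3 fell, where 29.2% and 12.1% of all genes did.

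Many genes of the ribosome and of mitochondrial complex I rose by small amounts. Of 80 cytosolic ribosomal protein genes 34 (42.5%) rose and 1 fell, with a median log2 fold change of 0.57; 30 rose without V983_1 and V983_3. Their summed share of gene counts, at equal depth, was 0.248% to 0.329% in control oocytes and 0.339% to 0.537% in cKO oocytes, without overlap. Rpl10l, the germline paralogue of Rpl10, rose from 2.81 ± 1.20 to 21.7 ± 6.05 CPM, and Rpl17 alone fell, from 148 ± 15.1 to 39.9 ± 7.33. Rpl9 (1.68) and Rpl12 (1.39) were near 1 CPM and lost their calls when single females were left out (1.21 to 1.82 for Rpl9 without V946, V993, V951, V982 or V995, and 1.04 to 1.41 for Rpl12 without V946, V993, V982 or V995, or 1.27 without V983_1 and V983_3). Ribosomal protein genes have many processed copies, so reads may be divided among them. Ribosome biogenesis genes were split, 12 higher and 11 lower of 43 (27.9% and 25.6%; 19 and 4 with library totals, 11 and 6 without V983_1 and V983_3): Nop16 (0.0847 to 7.21 CPM), the rRNA methyltransferase gene Nop2 (2.81) and the RNA polymerase I factor gene Ubtf (19.9 ± 1.95 to 101 ± 43.9 CPM) rose, and the pseudouridine synthase gene Dkc1 fell (-1.18; named after its values were seen). Ubtf was within or below the control range in V983_1 (18.8) and V983_3 (13.1). Complex I genes rose in 15 of 37 (40.5%) and fell in 3 (8.11%), with a median of 0.38 and a largest change of 1.27 in Ndufa3.

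**Figure D4:**
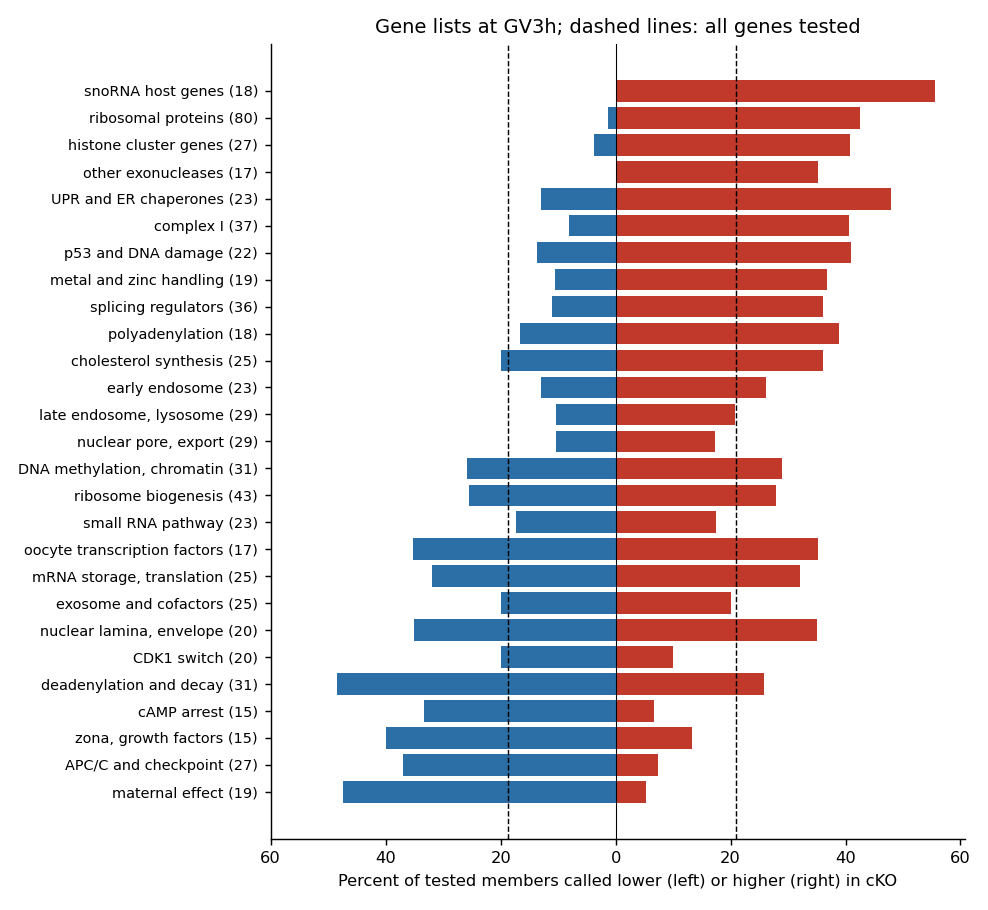
For 27 gene lists (number of tested members in brackets) the bars give the percent of members called higher (red, right) and lower (blue, left) in cKO; the dashed lines mark the 20.9% and 18.7% of all genes. Host genes of snoRNAs, ribosomal protein genes and histone cluster genes lean to higher, and maternal effect and anaphase-promoting complex and checkpoint genes to lower; scaling by library totals shifts all lists towards higher.

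V983_1 and V983_3 divided the changed genes. The other 9 cKO oocytes all lay above every control for 1715 of the 16844 genes tested. Of these, V983_1 and V983_3 were both also above for 918 (53.5%), both not above for 358 (20.9%), and they disagreed for 439. Below every control there were 1584 genes, with both also below for 1007 (63.6%) and both not below for 239 (15.1%). Mt1, Snord118, Hist1h4d, Hspa5, Flt1, Gpr3, Cnot7 and Lmna were beyond the controls in all 11 oocytes. Wee1, Figla, Ddx4, Zp2, Ddx6, Ubtf, Xbp1, Kdm1b, Tob1 and Hsph1 lay above every control in the 9 but not in V983_1 or V983_3, and Oosp3, Obox5, Cyp19a1 and Ezh2 lay below every control in the 9 but not in those 2. Kdm1b, the H3K4 demethylase gene needed for maternal imprints, had 130 to 236 CPM in controls, 387 to 576 in the 9 oocytes, and 202 and 191 in V983_1 and V983_3. These genes were picked from the lists by this pattern, so it is a description. The counts above are a description too. V983_1 and V983_3 were chosen because they stood apart, and the gene sets were defined by the other 9 oocytes. No other pair of oocytes was set aside for comparison.

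Fold changes followed the length of the gene. Protein-coding genes (13357) were divided by genomic span into 5 classes of equal size. In the shortest class, up to 8.56 kb, 31.9% of genes rose and 9.43% fell, with a median log2 fold change of 0.34. In the longest class, from 77.1 kb, 11.7% rose and 34.4% fell, with a median of -0.32. The steps between were monotonic (0.16, 0.06 and -0.12). Spearman's rho of span with log2 fold change over these genes was -0.279, and -0.285 without V983_1 and V983_3; genes share libraries and are not independent replicates. Levels also differ between the classes, with a median control level of 10.7 CPM in the shortest and 26.1 CPM in the longest, and genes low in controls rose more. Control levels were divided into 3 classes of equal size, low, middle and high. Within the middle class the medians still ran from 0.35 to -0.25, within the low class from 0.94 to 0.15 and within the high class from -0.01 to -0.50. Control level is part of the fold change itself, so its own relation is not separate from it. With library totals the medians of the classes ran from 0.55 to -0.11 and the class from 35.3 to 77.1 kb changed sign (0.08). Single-exon genes had a median of 0.51 and genes with over 20 exons -0.23, whereas GC content showed a smaller range, from -0.03 in the lowest of 5 classes to 0.20 in the highest.

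**Figure D5:**
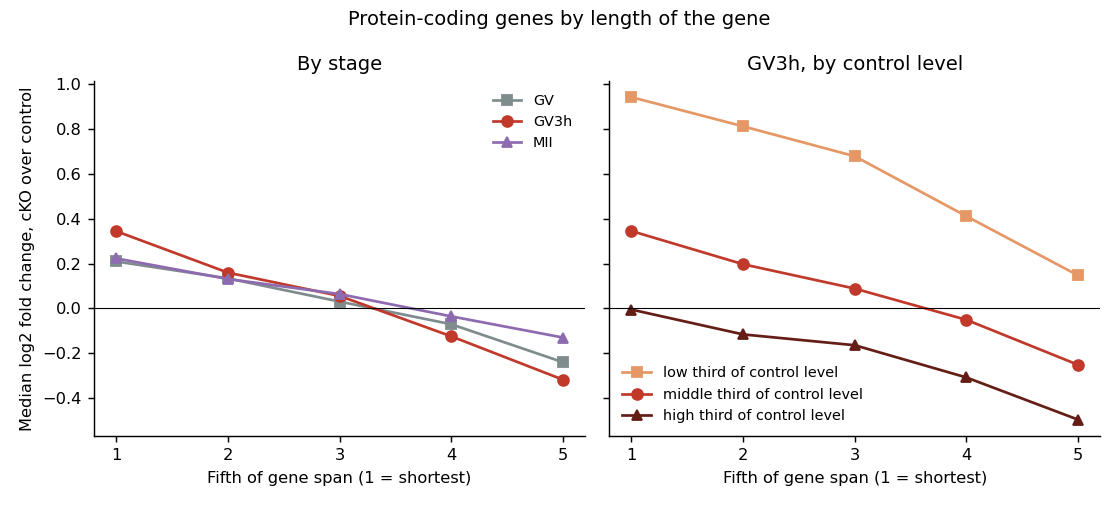
Median log2 fold change, cKO over control, of protein-coding genes in 5 classes of gene span (x axis, 1 = shortest); the left panel gives GV, GV3h and MII oocytes, the right panel GV3h for each of 3 classes of control level. At GV3h the medians fall from 0.34 to -0.32, and they fall in each class of control level.

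By annotation class, median log2 fold changes were 0.56 for 78 bidirectional promoter lncRNAs (28.2% higher, 6.41% lower), 0.44 for 312 TEC loci (30.8% and 12.8%), 0.08 for 998 lincRNAs (-0.14 without V983_1 and V983_3) and 0.03 for protein-coding genes. The median was -0.32 for 50 unprocessed pseudogenes, of which 2 rose and 12 fell, and -0.14 both for 82 transcribed processed pseudogenes (9.76% higher, 21.95% lower) and for 54 transcribed unprocessed pseudogenes (14.8% and 22.2%); with library totals the transcribed pseudogene classes were at 0.06 and 0.07. The share of counts on long noncoding and TEC genes together was 3.97% ± 0.127 in controls and 3.59% ± 0.2505 in cKO (SD, n = 3 females; exact permutation p = 0.2). At an equal depth of 4000000 counts a cKO oocyte had 19830 to 20800 genes with a count and a control 18130 to 18640, without overlap. Reads outside annotated genes made up 12.4% ± 0.207 in cKO and 10.8% ± 0.819 in controls. For the gene number and the reads outside genes the exact permutation test over females gave p = 0.1, the smallest that 3 against 3 allows, and 0.12 after adjustment over the 12 shares tested. Mitochondrially encoded genes made up 0.342% and 0.311% (exact permutation p = 0.4).

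The same genotypes were also collected before culture (GV, 2 and 2 females, 15 cKO and 7 control oocytes) and as ovulated eggs (MII, 3 and 3 females, 15 and 8). The interaction of genotype and stage asks whether the knockout difference changed. Between GV and GV3h, edgeR called 0 of 19257 genes (0.0%), with 480 at an unadjusted p under 0.05; DESeq2 called 2 and the fit with oocytes as replicates 15. This does not show that the stages are alike: at GV itself, with 2 females a group, 1 of 18004 genes (0.00555%) was called, and that gene was Mt1 (log2 fold change 8.04). Values at GV and GV3h side by side were -3.80 and -4.92 for Flt1, -1.01 and -1.41 for Gpr3, 1.86 and 1.99 for Eif2ak3, 4.10 and 3.91 for Hist1h1e, 0.58 and 1.94 for Dnajb9 and 1.35 and 4.68 for Ctsl. The medians of the shortest and longest span classes at GV were 0.21 and -0.24.

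Between GV3h and MII, where 2522 of 13813 genes (18.3%) were called for genotype at MII, the interaction was called for 1657 of 17232 genes (9.62%), 689 with a more positive and 968 with a more negative change at GV3h (859 and 743 with library totals). The called share fell to 5.51% of genes tested without V946, 5.65% without V993, 4.63% without V951, 4.8% without V982 and 6.04% without V995. Id3, an inhibitor of basic helix-loop-helix factors, rose at GV3h from 1.99 to 7.68 CPM in controls to 6.05 to 169 CPM in cKO oocytes, whereas its log2 fold change at MII was -0.98 (difference 5.11, adjusted p = 0.00084). Mier1 was at 4.02 and 0.23, and Glod4 at 0.81 and -1.59. In the other direction, Tm2d1 was at -0.54 and 2.34 (difference -2.87, adjusted p = 1.3e-05); at GV3h alone its call was lost without V946, V993, V951 or V995 (-0.55 to -0.43). The maternal effect gene Nlrp14 was at 0.12 and 1.38, and E330017A01Rik at -0.11 and 3.10, both not called at GV3h; Nlrp14 was called there with library totals (0.33, adjusted p = 0.016) and with 2 oocytes per female (0.31, adjusted p = 0.0378). Several members described above shared this difference between the stages: Lsm1 (2.38 and -0.13), Ddx4 (2.04 and -0.22), Wee1 (2.07 and -0.64), Ier2 (4.33 and -1.30), Tbpl2 (1.33 and -0.58), Eif2ak3 (1.99 and -0.34), Mt1 (9.37 and 2.38) and Malat1 (3.28 and 0.54) had a significant interaction. The interaction was not called for Mdn1 (5.82 and 5.56), Flt1 (-4.92 and -4.01), Gas5 (1.41 and 1.44), Zfas1 (1.85 and 1.87), Btg4 (-0.90 and -1.08) or Ttk (-1.31 and -0.99). Hist1h1e (3.91 and 7.30) and Hspa5 (1.31 and 2.21) had a larger change at MII, with adjusted interaction p of 0.036 and 0.028.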

How the data were processed

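The deposited gene files hold whole-number counts per Ensembl gene and oocyte, made by the authors with no normalization. Per the submitters' processing notes, cutadapt 2.5, FastQC 0.11.8, STAR 2.7.2a, SAMtools 1.9, HTSeq 0.9.1, R 3.5.1 and DESeq2 1.24.0 were used with mm10; the strand setting, annotation release and any removal of duplicates are not given in the sources used here. Per the labels' protocols, polyA RNA of a single lysed oocyte was bound to oligo(dT) beads, amplified and made into Nextera libraries with a spike-in mix added. The files have 0 spike-in lines. Of 55573 gene identifiers, 55394 had a symbol. Here, lines that name no gene were left out of library sizes (reads outside genes 10.07% to 13.29% and ambiguous reads 2.653% to 3.006% of an oocyte's reads), counts were summed per female, filtered with filterByExpr, scaled with TMM and tested two-sided with edgeR 4.0.16 in R 4.3.3, with the compared groups alone in the fit and no covariate. CPM per oocyte used TMM over the 19 libraries. SE is the log2 fold change divided by the root of F. Amplified reads carry no molecular identifiers. Shares of counts were taken at 4000000 counts per oocyte and compared over females with exact permutation tests in scipy 1.17.1. Coordinates, span and exons came from GENCODE M21 (GRCm38).

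Named genes were Exosc10; the 10 largest rises and falls among called genes with at least 20 CPM in the higher and 1 CPM in the lower genotype and no overlap of oocytes, leaving out Gm and Rik names, of which 3 each way were named; the 5 highest cKO means among called genes with at most 3 counts in each control oocyte; in each gene list up to 4 called members with the largest change, or all of 5 or fewer; and the 3 smallest interaction p each way. The comparison, lists and rule were chosen with earlier results of these data known. Alternatives were oocytes as replicates, limma 3.58.1 on oocytes with correlation within females, DESeq2 1.42.0, its size factors, library totals, other filters on low counts, all polyA groups in one fit, 2 oocytes per female, pairing of females, and leaving out each female or V983_1 and V983_3. RiboMinus and rRNA files were not used here, and a few items are not reported here. The fit was tested on simulated data.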

Additional observations from a re-analysis of the deposited data

Results flagged for a closer look

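Single oocytes far from the rest of their group were looked for among the genes named by the main rules and the shares of counts, in 43 sets of values over the 8 control oocytes; 5 such values were found, and chance gives about 1 in 20. The test used covers groups of 4 to 10, so the 11 cKO oocytes, among which V983_1 and V983_3 stand apart, were not searched. Cct6a was at 0.442 CPM in control oocyte V982_2, below the other controls. Control oocyte V995_3 was lowest for Nedd4l (165 CPM) and for Gm36241 (23.1 CPM). Zfp622 was highest among controls in V995_4 at 0.204 CPM, which is 1 count. The share of counts on replication-dependent histone genes was 0.0338% in V995_2, the highest control.

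The genotype difference was tested for a change with stage. Against GV, 0 genes were called. Against MII, 1657 genes were called, and among the genes named the difference GV3h minus MII in log2 fold change was 3.70 for Zfp367, 3.66 for Dusp2, 3.02 for Klhl21, 3.92 for Tex19.2, 2.51 for Gm9768, 3.56 for 2410002F23Rik, 5.11 for Id3, 2.42 for Glod4 and 3.78 for Mier1. It was -3.90 for Utrn, -2.32 for Slc25a13, -2.39 for Man1a, -1.57 for Nedd4l, -1.48 for Ece1, -1.69 for Gm49367, -1.72 for A630095E13Rik, -2.87 for Tm2d1, -1.25 for Nlrp14 and -3.18 for E330017A01Rik.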

How the results depend on the processing

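The number of genes called for genotype at GV3h (6681) stayed between 4849 (all polyA groups in one fit) and 7837 (no filter) over the alternatives that keep all females, and between 5079 and 7781 when each female was left out in turn. Labels give no shared replicate numbers across genotypes; with females paired by nearest number as a replicate block, 6417 genes were called, and the deviations of paired females correlated at 0.0165 to 0.0597, so the numbers were not treated as pairing. Under the block Vps18, Ptch1, Tek, Muc16, Rpl9 and mt-Tf lost their calls, and none of the other named genes changed side. With all polyA groups in one fit Exd2, Sun2, Sohlh1, Pmaip1, Kit, Tut4 and Mvk were among the calls lost, and Anapc10 lost its call with 2 oocytes per female. The GV interaction called 15 genes with oocytes as replicates, 2 with DESeq2 and 64 without a filter, and 0 to 2 when each female was left out. The MII interaction called 3748 genes (24.8% of those tested) with oocytes as replicates, 2760 (16.0%) with DESeq2 and 2500 (7.05%) without a filter, and between 4.63% and 13.9% of the genes tested when each female was left out; the cause was not tested. Of 206 named genes 1 changed sign, E330017A01Rik with library totals (0.10), which was called under neither scaling. Shares of counts over 3 against 3 females cannot pass 0.05. Genes near 0 in controls are limited by depth, and their ratios have wide intervals.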
